A study of Sus scrofa with 67 samples.

Results

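The nuclear genes for subunits of respiratory complexes II, III and IV and of ATP synthase, known as complex V, were described in pig back muscle across 7 groups of libraries. Genes were taken by symbol: SDHA, SDHB, SDHC, SDHD, CYC1, and every symbol beginning with UQCR, with COX4 to COX8, or with ATP5. The deposited table of read counts lists 18158 genes. The rule was met by 40 of them, of which 4 belong to complex II, 6 to complex III, 15 to complex IV and 15 to complex V. Some known subunits, such as UQCRFS1 and UQCRH of complex III and COX7A2 of complex IV, have no row under these symbols. The counts per complex therefore do not cover whole complexes. The rule reads the symbol alone. UQCRB, a small subunit of complex III, was listed at 0 in all 67 libraries, and COX6B2, a testis isoform in other mammals, averaged 2.69 counts and was at 0 in 29 libraries. Both stayed below the count filter, and the other 38 genes were tested in every comparison. UQCRB is a subunit that respiring cells use, so its 0 is not read as an expression level. The table does not show whether its reads were counted under another row, or whether the separate rows COX6B and COX6B1 stand for the same gene.

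RNA came from the longissimus dorsi of Swiss Large White piglets, females and castrated males of 20 litters, and each library is 1 animal. During weeks 1 to 4 after weaning the animals ate a standard diet, titled Standard Protein (STD, n = 6), or a diet with 81% of its total crude protein, titled Low Protein (LP, n = 6), both with digestible amino acids at the requirement. In weeks 5 to 8 all ate the standard diet: animals kept on it (STD-STD, n = 12), animals moved to it from the low protein diet (LP-STD, n = 12), and animals so moved whose diet had its digestible lysine raised by 10% (LP-STD10, n = 12) or by 20% (LP-STD20, n = 12), with other essential amino acids above requirement. Another 7 libraries are titled BL, which the labels do not explain, so their age and diet are not known here. Of the 67 piglets 60 were allocated to diets and 7 were not, as many as the BL libraries, but no label says that these are the same animals. Sex, litter and the day of sampling are not given per library. The libraries of weeks 1 to 4 with BL carry the numbers 1 to 19 and those of weeks 5 to 8 the numbers 20 to 67, so that period, age and place in the library order cannot be told apart. BL carries the numbers 1 to 7 and LP and STD the numbers 8 to 19, so BL and place in the library order cannot be told apart either.

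Complex II, succinate dehydrogenase, passes electrons from the citric acid cycle to ubiquinone. Complex III passes them on to cytochrome c, and complex IV hands them to oxygen. Complexes III and IV pump protons across the inner mitochondrial membrane, and complex V uses the returning protons to make ATP. The core subunits of complex IV and part of complex V are encoded in mitochondrial DNA, while the subunits described here are made from nuclear genes and imported. Slow, oxidative muscle fibres hold more of these complexes than the fast fibres that make up most of the back muscle, and some subunits of complex IV have a muscle isoform beside a general one.

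Totals per library ran from 26680567 to 36935497 counts, of which the 40 genes took 0.528% to 0.914%. Levels below are counts relative to the library size after TMM scaling (CPM), given as the median with the lowest and highest library in parentheses, and they are not compared between genes because transcript lengths were not used. Markers of skeletal muscle were high in every library, 7 of the 9 listed being in the table and summing to 133515 to 361205 CPM. BL replicate 4 stood apart in this gene set, with ATP5F1B at 597 CPM against 1110 to 1470 in the other BL libraries, and its 6 macrophage markers summed to 174 CPM against 22.5 to 119 in the other BL libraries. STD replicate 1 had the highest mean log2 level of the 38 genes in its group, 6.96 against 6.59 to 6.82 in the other 5. The test over the 7 groups and the comparisons with BL or STD are also given without them. In bulk tissue fewer cells of a type and less RNA per cell cannot be told apart.

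Across the 7 groups the mean level of the 38 genes was highest in BL, intermediate in STD and LP and lowest in the second period. Complex II by itself had mean log2(CPM + 0.5) values of 7.61 in LP, 7.60 in BL and 7.59 in STD, so BL was not its highest group. The mean log2(CPM + 0.5) over the 38 genes was 6.86 ± 0.23 (SD, n = 7) in BL, 6.74 ± 0.09 (n = 6) in LP and 6.72 ± 0.15 (n = 6) in STD. It was 6.55 ± 0.15 in LP-STD, 6.51 ± 0.16 in STD-STD, 6.46 ± 0.09 in LP-STD20 and 6.44 ± 0.13 in LP-STD10 (n = 12 each). The ranges of all neighbouring groups in this order overlapped. A test for any difference among the 7 groups (edgeR quasi-likelihood F test, Benjamini-Hochberg adjusted p under 0.05 over all 13517 genes tested) was passed by 30 of the 38 genes, against 44.8% of all genes tested. They were 2 of 4 in complex II, all 5 tested in complex III, 10 of 14 in complex IV and 13 of 15 in complex V. The 8 that did not pass were SDHC, SDHD, COX4I1, COX4I2, COX6A1, COX6B1, ATP5F1A and ATP5F1B. Without BL replicate 4 the count was 32, with SDHD and ATP5F1B added, and without STD replicate 1 it was 29, with ATP5MC3 lost.

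**Figure D1:**
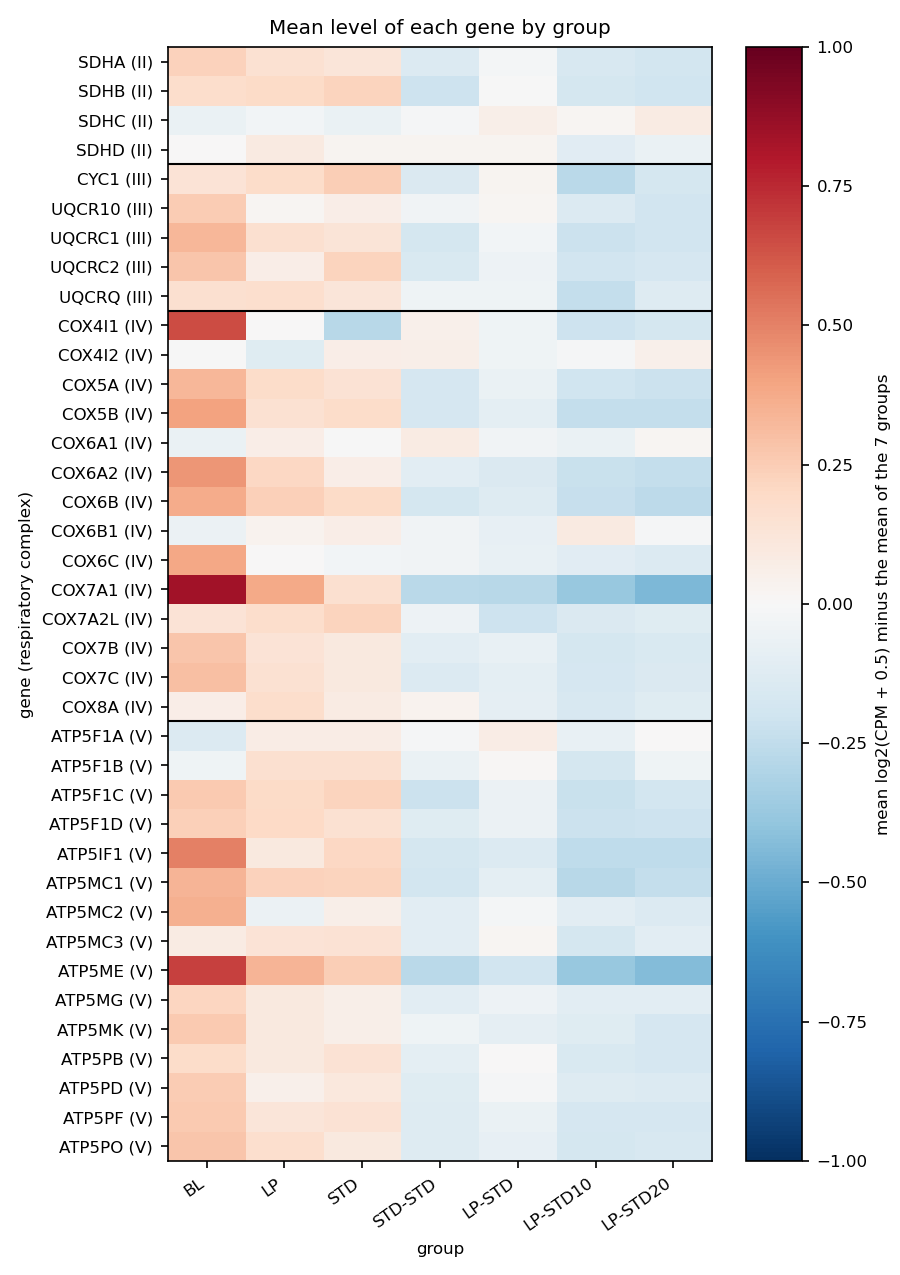
Mean log2(CPM + 0.5) of each of the 38 tested genes in each of the 7 groups, minus the mean of its 7 group means, ordered by complex, with black lines between complexes and colour giving the difference in log2 units. Most rows go from red in BL, LP and STD to blue in the 4 second-period groups, with the strongest colours in COX7A1, ATP5ME and, for BL, COX4I1, and SDHC, COX6A1 and ATP5F1A show little of this order.

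In complex II the 2 catalytic subunits differed among groups and the 2 membrane anchors did not pass the test. SDHA, the flavoprotein that oxidises succinate (Sscrofa11.1 chromosome 16, 79838442 to 79862956), had medians of 379 CPM in BL (279 to 417), 321 in STD (302 to 427) and 352 in LP (328 to 368). SDHA medians in weeks 5 to 8 were 289 in STD-STD (222 to 369), 309 in LP-STD (256 to 369), 292 in LP-STD10 (220.4 to 334) and 281 in LP-STD20 (233 to 315). SDHA medians were lower in the later groups than in LP and STD, and 8 of 12 STD-STD libraries lay below the lowest STD library. Of the 12 LP-STD libraries 8 lay below the lowest LP library and 1 above the highest, and SDHA did not pass in LP-STD against LP. The adjusted p over 7 groups, which tests for any difference with BL included, was 2.8e-05. SDHB, the iron-sulfur subunit (chromosome 6, 75648362 to 75678111), had medians of 194 CPM in BL (147 to 211), 188 in STD (173 to 219.98) and 183 in LP (178 to 206). SDHB medians then were 142 in STD-STD (101 to 191), 165 in LP-STD (130.3 to 218), 147 in LP-STD10 (115 to 176) and 142 in LP-STD20 (117 to 175). For SDHB 10 of the 12 STD-STD libraries lay below the lowest STD library, and the adjusted p over 7 groups was 6.19e-06.

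SDHC and SDHD anchor the catalytic pair in the membrane and take part in binding ubiquinone and haem. SDHC had medians of 143 CPM in BL (82.7 to 159), 131 in STD (106 to 181) and 141 in LP (120.2 to 151). SDHC medians in weeks 5 to 8 were 138 in STD-STD (111 to 193), 144 in LP-STD (127 to 184), 144 in LP-STD10 (122 to 173) and 151 in LP-STD20 (133 to 188). All of these ranges overlapped, and the adjusted p over 7 groups was 0.753. SDHD had medians of 162 CPM in BL (78.7 to 180.04), 146 in STD (130.4 to 204) and 163 in LP (141 to 179). SDHD medians in weeks 5 to 8 were 151 in STD-STD (132 to 169.6), 153 in LP-STD (135 to 176), 141 in LP-STD10 (115 to 161) and 144 in LP-STD20 (134 to 159), and the adjusted p over 7 groups was 0.234. The lowest value of both genes belonged to BL replicate 4, without which SDHD passed the test over the 7 groups and SDHC did not, and the other BL libraries lay within the range of the remaining groups.

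All 5 tested genes of complex III differed among the 7 groups. UQCRC1, a core protein on the matrix side, had medians of 356 CPM in BL (300.3 to 412), 301 in STD (289.9 to 362) and 314 in LP (299 to 355). UQCRC1 medians in weeks 5 to 8 were 247 in STD-STD (187 to 359), 272 in LP-STD (236 to 357), 246 in LP-STD10 (183 to 341) and 254 in LP-STD20 (199.9 to 278). Its lowest BL library lay below the STD and LP medians, and 9 of 12 STD-STD and all LP-STD20 libraries lay under every STD library (adjusted p over 7 groups = 2.42e-06). UQCRC2, the second core protein, had medians of 285 CPM in BL (226 to 299.9), 264 in STD (234 to 316) and 239 in LP (222 to 265). UQCRC2 medians in weeks 5 to 8 were 210.1 in STD-STD (162 to 256), 224 in LP-STD (183 to 261), 209.8 in LP-STD10 (149 to 254) and 210.3 in LP-STD20 (175 to 250.4). Here 10 of 12 STD-STD libraries lay below the lowest STD library, but only 5 of 12 LP-STD libraries lay below the lowest LP library (adjusted p over 7 groups = 4.02e-06). CYC1, cytochrome c1, which hands electrons to cytochrome c, had medians of 262 CPM in BL (155 to 290.01), 257 in STD (214 to 337) and 251 in LP (235 to 269.7). CYC1 medians in weeks 5 to 8 were 199.99 in STD-STD (149 to 259), 224 in LP-STD (182 to 281), 188 in LP-STD10 (146 to 233) and 200.3 in LP-STD20 (164 to 231). The lowest LP library stood above every LP-STD10 and LP-STD20 library, while the other ranges of CYC1 overlapped (adjusted p over 7 groups = 1.69e-05). The small subunits UQCR10 and UQCRQ passed as well, with adjusted p-values of 0.002 and 0.000821. UQCR10 ran from 28.8 to 68.1 CPM over the 67 libraries with a BL median of 63.3 and an LP-STD20 median of 41.4. UQCRQ ran from 51.9 to 124 CPM, with medians of 101 in BL and 73.1 in LP-STD10.

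**Figure D2:**
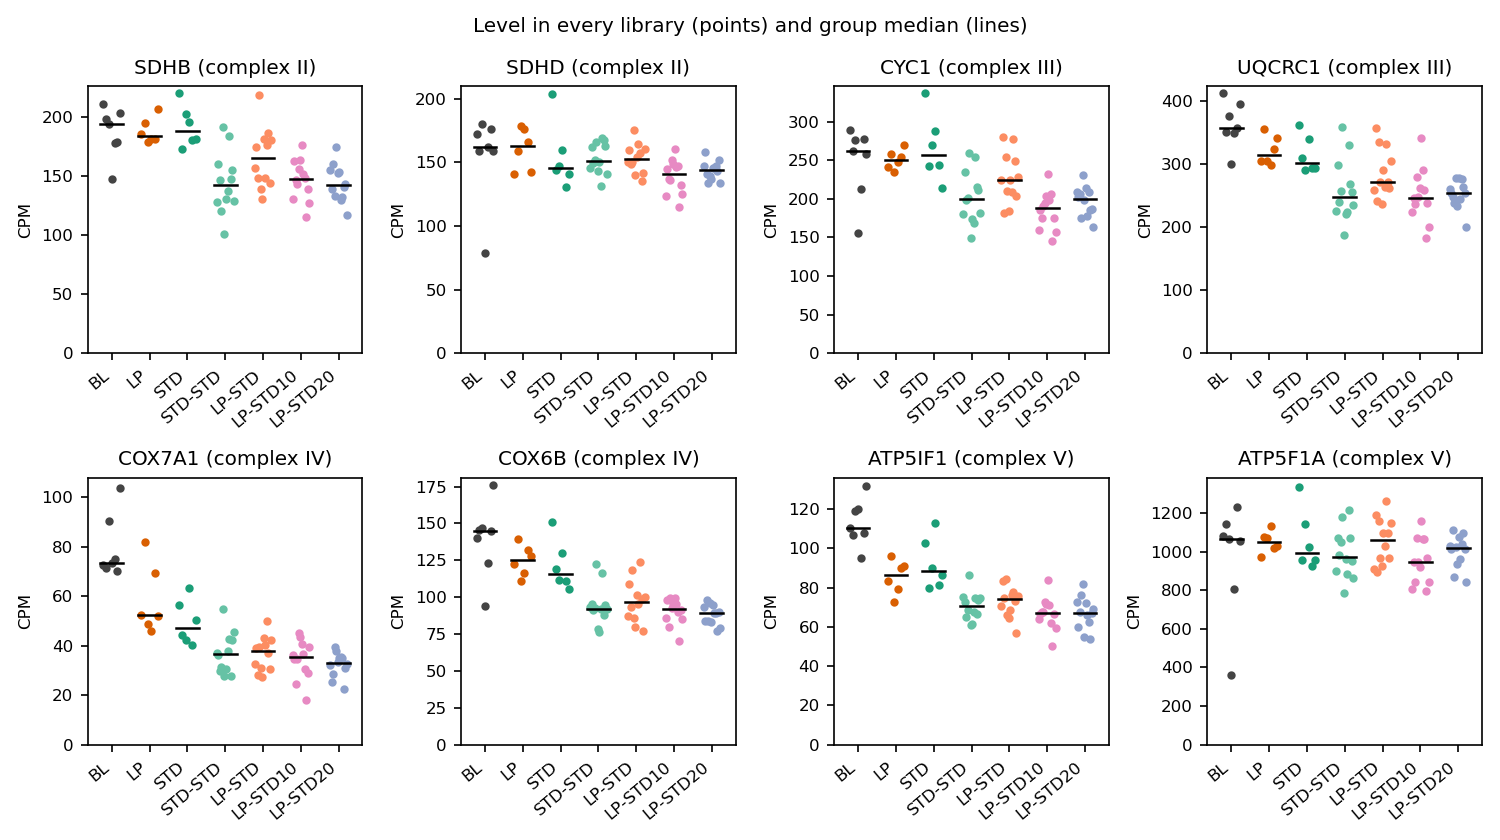
CPM of 8 genes in every library, with groups on the horizontal axis, 1 point per library and a line at each group median, on vertical axes that start at 0. SDHB, CYC1, UQCRC1, COX7A1, COX6B and ATP5IF1 have lower medians in the 4 right-hand groups than in STD and LP, while the ranges of SDHD and ATP5F1A overlap in all 7 groups, with the lowest point of both in BL replicate 4.

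In complex IV the muscle isoform COX7A1 had the lowest adjusted p of all 38 genes over the 7 groups (4.31e-13). COX7A1 (chromosome 6, 45519225 to 45520721) is the heart and muscle form of a subunit at the dimer interface. It had medians of 73.3 CPM in BL (70.3 to 104), 47.2 in STD (40.4 to 63.4) and 52.2 in LP (46.0 to 82.1). COX7A1 medians in weeks 5 to 8 were 36.7 in STD-STD (27.7 to 54.7), 37.9 in LP-STD (27.5 to 49.8), 35.6 in LP-STD10 (18.2 to 45.2) and 33.0 in LP-STD20 (22.6 to 39.6). The lowest BL library stood above the highest STD library, and 11 of 12 LP-STD libraries stood below the lowest LP library. Its level ranged 5.71-fold over the 67 libraries, against 1.54-fold for ATP5MG, the narrowest of the 38 genes. COX4I1 ranged wider at 8.15-fold, as did the scarcely counted COX6B1 at 6.38-fold.

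COX6B, listed under this symbol beside a separate and scarcely counted row COX6B1, is the subunit that faces the intermembrane space (chromosome 6, 45091829 to 45102785). COX6B had medians of 145 CPM in BL (94.3 to 176), 115 in STD (105 to 151) and 125 in LP (111 to 139.7). COX6B medians in weeks 5 to 8 were 92.3 in STD-STD (76.5 to 123), 96.9 in LP-STD (76.9 to 124), 91.9 in LP-STD10 (70.1 to 99.6) and 89.1 in LP-STD20 (77.1 to 98.2). In both diet histories 10 of 12 second-period libraries lay below every library of the earlier group, with an adjusted p over 7 groups of 3.67e-10. COX5B, a zinc-binding subunit on the matrix side, had medians of 143 CPM in BL (129 to 174), 119.9 in STD (104 to 153) and 122 in LP (106 to 145). COX5B medians in weeks 5 to 8 were 97.7 in STD-STD (75.4 to 134), 102 in LP-STD (76.9 to 133), 94.2 in LP-STD10 (72.4 to 111) and 94.8 in LP-STD20 (79.0 to 108). Every LP-STD10 and LP-STD20 library lay below the lowest BL library for COX5B, and STD and LP overlapped all other groups (adjusted p over 7 groups = 1.81e-08). COX6B1, with an average of 12.0 counts, was measured too loosely for such a difference to be detectable, its STD-STD against STD difference being -0.22 ± 0.32 (SE).

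COX6A2 is the heart and muscle form of a subunit whose general form is COX6A1. COX6A2 had medians of 160.2 CPM in BL (107 to 177), 115 in STD (105 to 129.6) and 136 in LP (95.1 to 159). COX6A2 medians in weeks 5 to 8 were 101 in STD-STD (82.5 to 142), 103 in LP-STD (75.4 to 122), 101 in LP-STD10 (60.3 to 114) and 92.1 in LP-STD20 (70.0 to 126). BL was the highest group, with STD and LP overlapping both BL and the later groups (adjusted p over 7 groups = 8.37e-07). COX6A1 (chromosome 14, 40408600 to 40410810) had medians of 48.6 CPM in BL (44.0 to 53.0), 50.2 in STD (43.3 to 58.5) and 53.4 in LP (47.5 to 60.9). COX6A1 medians in weeks 5 to 8 were 55.6 in STD-STD (44.3 to 62.5), 48.0 in LP-STD (44.2 to 59.6), 48.0 in LP-STD10 (40.6 to 54.0) and 51.2 in LP-STD20 (42.4 to 72.1). All 7 ranges overlapped for COX6A1 and the adjusted p over 7 groups was 0.234. COX4I1 and COX4I2 are isoforms of the subunit through which complex IV responds to nucleotides. COX4I2, known as the lung isoform in other mammals and one that rises at low oxygen, had medians of 4.13 CPM in BL (1.66 to 6.07), 3.88 in STD (3.28 to 4.87) and 3.50 in LP (2.54 to 4.32). COX4I2 medians in weeks 5 to 8 were 4.13 in STD-STD (2.85 to 5.17), 3.60 in LP-STD (2.15 to 4.92), 3.67 in LP-STD10 (2.40 to 5.69) and 3.84 in LP-STD20 (3.06 to 5.05), and all ranges overlapped (adjusted p over 7 groups = 0.894).

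COX4I1, the general isoform, spread within groups more than any other of the 38 genes. COX4I1 had medians of 79.4 CPM in BL (66.9 to 346), 67.0 in STD (46.0 to 86.0) and 68.3 in LP (58.1 to 209). COX4I1 medians in weeks 5 to 8 were 80.9 in STD-STD (42.4 to 179.8), 58.4 in LP-STD (43.4 to 192), 56.9 in LP-STD10 (44.2 to 157) and 55.1 in LP-STD20 (43.7 to 165). It exceeded 100 CPM in 20 of 67 libraries: 3 of 7 in BL, 1 of 6 in LP, none of 6 in STD and 4 of 12 in each of the 4 second-period groups, a limit chosen after its values were seen. Its SD within groups was 0.740 on the log2 scale, above that of 97% of all genes tested, against a median of 0.194 for the 38 genes. The adjusted p over 7 groups was 0.101. After the mean of the other genes was subtracted in each library its SD was 0.743, so its high libraries did not follow the level of the other subunits.

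Of the remaining subunits of complex IV, COX5A, which sits on the matrix side with COX5B, ran from 145 to 369 CPM over the 67 libraries, with group medians from 299.9 in BL to 198 in LP-STD20 (adjusted p over 7 groups = 2.26e-07). COX6C had medians of 110.2 CPM in BL (69.8 to 122), 75.9 in STD (71.0 to 92.1) and 79.5 in LP (69.1 to 95.7). COX6C medians in weeks 5 to 8 were 76.9 in STD-STD (64.5 to 108), 77.2 in LP-STD (63.1 to 88.6), 76.0 in LP-STD10 (51.4 to 92.6) and 71.5 in LP-STD20 (60.9 to 84.1). BL without replicate 4 lay at 105 CPM or above for COX6C, and the medians of STD, LP and the later groups lay below that (adjusted p over 7 groups = 3.77e-05). The small membrane subunits COX7B and COX7C ran from 66.5 to 167 and from 85.9 to 227 CPM and passed over the 7 groups (0.000272 and 0.000133). COX7A2L and COX8A kept within narrower limits, 11.3 to 23.7 and 17.3 to 34.7 CPM, and passed as well (9.91e-05 and 0.0119).

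The other genes kept closer to one another within groups than to a fixed level. Subtracting the mean of the other genes in each library lowered the within-group SD of 33 of the 38 genes, and the median SD went from 0.194 to 0.124 on the log2 scale. This describes libraries in which most subunits were high or low together, and it includes any error of the scaling factors, which all genes of a library share. The smallest remaining SDs were those of COX6B (0.0696), ATP5PO, the stalk subunit OSCP (0.0700), and ATP5PD, subunit d (0.0759). The 5 genes that did not become closer were COX4I1, COX6A1, COX6B1, COX7A2L and COX8A.

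**Figure D3:**
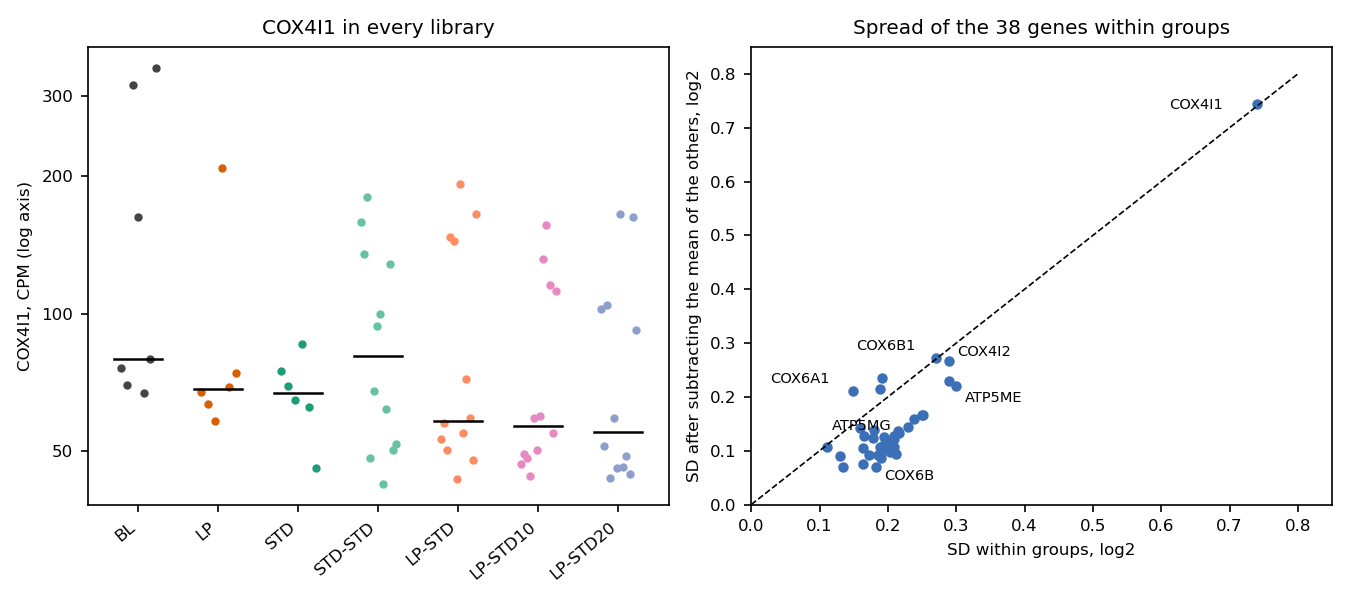
Left, COX4I1 in CPM on a log axis in every library by group, with a line at each group median. Right, for each of the 38 genes, the SD of log2(CPM + 0.5) within groups (horizontal) and after subtracting the mean of the other genes in each library (vertical), with a dashed line where both are equal; 33 points lie below the line, and COX4I1 lies far from the rest near 0.74 on both axes.

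In complex V the inhibitor ATP5IF1 and the small membrane subunit ATP5ME had the lowest adjusted p-values over the 7 groups, and the catalytic pair did not pass the test. ATP5IF1, the inhibitor protein that stops complex V from breaking down ATP, had medians of 110.4 CPM in BL (94.9 to 132), 88.4 in STD (80.0 to 113) and 86.7 in LP (72.8 to 96.1). ATP5IF1 medians in weeks 5 to 8 were 70.6 in STD-STD (60.9 to 86.7), 74.0 in LP-STD (57.0 to 84.3), 67.1 in LP-STD10 (50.4 to 83.9) and 67.3 in LP-STD20 (54.0 to 81.9). Among STD-STD libraries 11 of 12 lay below every STD library, and BL lay highest (adjusted p over 7 groups = 6.69e-13). ATP5ME, subunit e, which takes part in pairing complex V into dimers, had medians of 44.0 CPM in BL (26.4 to 50.3), 30.5 in STD (25.8 to 32.9) and 36.0 in LP (21.4 to 43.0). ATP5ME medians in weeks 5 to 8 were 20.8 in STD-STD (13.8 to 32.4), 21.6 in LP-STD (16.0 to 30.8), 19.8 in LP-STD10 (13.0 to 25.0) and 19.1 in LP-STD20 (10.7 to 25.9). Again 11 of 12 STD-STD libraries lay below every STD library, while 6 of 12 LP-STD libraries lay below every LP library (adjusted p over 7 groups = 8.28e-11).

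ATP5MC1, ATP5MC2 and ATP5MC3 encode the same mature c subunit of the proton-driven ring with different import signals. ATP5MC1 had medians of 196 CPM in BL (115 to 223), 163 in STD (146 to 212) and 171 in LP (155 to 185). ATP5MC1 medians in weeks 5 to 8 were 123 in STD-STD (103 to 174), 130.2 in LP-STD (113 to 191), 121 in LP-STD10 (89.4 to 139.7) and 119.8 in LP-STD20 (109 to 139), with an adjusted p over 7 groups of 9.72e-09. For ATP5MC1 10 of 12 STD-STD and 10 of 12 LP-STD libraries lay below the lowest library of the earlier group. ATP5MC3 had medians of 223 CPM in BL (95.6 to 254), 188 in STD (166 to 270.2) and 199 in LP (178 to 226). ATP5MC3 medians in weeks 5 to 8 were 165 in STD-STD (125 to 216), 185 in LP-STD (135 to 244), 166 in LP-STD10 (134 to 189) and 172 in LP-STD20 (138 to 192), with an adjusted p over 7 groups of 0.0399. The 7 ranges of ATP5MC3 overlapped throughout, and it no longer passed with RLE factors, no count filter, a replicate block or correlated runs, nor without BL replicate 1, 2, 3, 6 or 7, LP replicate 2, 4 or 5 or STD replicate 1 or 3. Of the catalytic subunits, alpha (ATP5F1A) had group medians between 945 and 1065 CPM and an adjusted p of 0.75, and beta (ATP5F1B) had an adjusted p of 0.0741 and passed without BL replicate 4, while gamma (ATP5F1C) and delta (ATP5F1D) of the central stalk passed with 3.27e-07 and 1.66e-07. ATP5PB, ATP5PD, ATP5PF and ATP5PO of the outer stalk all passed, with adjusted p-values from 1.37e-08 to 0.000118, as did the membrane subunits ATP5MC2, ATP5MG and ATP5MK.

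ATP5MC2 had medians of 189.7 CPM in BL (160.3 to 223), 149.8 in STD (138 to 186) and 143 in LP (127 to 163). ATP5MC2 medians in weeks 5 to 8 were 141 in STD-STD (106 to 177), 152 in LP-STD (129 to 164), 136 in LP-STD10 (122 to 178) and 134 in LP-STD20 (121 to 169). The BL median lay above the highest library of every other group, and LP and the later groups overlapped (adjusted p over 7 groups = 4.32e-06). The outer stalk genes ran from 165 to 282 CPM for ATP5PB, from 73.6 to 154 for ATP5PD, from 50.9 to 107 for ATP5PF and from 140.1 to 254 for ATP5PO. ATP5MG spread least within groups of all 38 genes (SD 0.111 on the log2 scale), at a percentile of 1.09 among all genes tested. ATP5F1A and ATP5F1B reached their lowest levels, 358 and 597 CPM, in BL replicate 4.

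STD was compared with BL. Of the 38 genes 5 were lower in STD and none was higher, against 4.08% of all genes tested that were lower and 2.62% that were higher. They were COX7A1 at -0.68 ± 0.16 (SE, adjusted p = 0.00424) on the log2 scale, COX6C, a small subunit of complex IV, at -0.43 ± 0.11 (SE, adjusted p = 0.0085), COX6A2 at -0.40 ± 0.13 (SE, adjusted p = 0.0493), ATP5MC2 at -0.30 ± 0.09 (SE, adjusted p = 0.0359) and ATP5IF1 at -0.29 ± 0.09 (SE, adjusted p = 0.0411), all by edgeR's quasi-likelihood test. The median of the 38 log2 differences was -0.13, with 28 below 0, beside -0.02 over all genes. By complex the median was -0.01 in complex II, -0.06 in complex III, -0.20 in complex IV and -0.14 in complex V. The count of 5 fell to between 2 and 3 without BL replicate 3 or 7 or without STD replicate 1, 2, 3, 5 or 6. It was 1 in a fit of just the compared groups, which called 66 of all 12609 genes lower. It rose to 12 by limma voom with quality weights, which called 3.9% of all genes lower. Without STD replicate 1 the median was -0.20. Without BL replicate 4 the count was again 5, with ATP5IF1 lost and ATP5ME added. COX7A1 was among the genes called in each of these fits. Of the 7 skeletal muscle markers all lay above 0 in STD against BL (median 0.24), with ATP2A1 called at 0.45 ± 0.14 (SE, adjusted p = 0.0446) (edgeR), and 5 of 6 adipocyte markers lay above 0 (median 0.45), none called. Macrophage and endothelial markers had medians of 0.10 and -0.01, none called, and the part of these markers in the lower values was not tested.

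LP was compared with the same BL libraries. Of the 38 genes 3 were lower in LP and none was higher, against 4.02% of all genes tested that were lower and 2.44% that were higher. They were ATP5MC2 at -0.42 ± 0.09 (SE, adjusted p = 0.00261), ATP5IF1 at -0.40 ± 0.09 (SE, adjusted p = 0.00432) and COX6C at -0.39 ± 0.11 (SE, adjusted p = 0.0171) (edgeR). COX7A1 differed by -0.44 ± 0.16 (SE, adjusted p = 0.0764) and COX6A2 by -0.23 ± 0.13 (SE, adjusted p = 0.292), and COX7A1 was called lower by DESeq2, by limma voom with quality weights and without LP replicate 2. The median of the 38 differences was -0.14 and became -0.23 without BL replicate 4. None of the 3 calls was made in a fit of just the compared groups, which called 44 of all 12626 genes lower. None of the skeletal muscle, adipocyte, macrophage or endothelial markers was called in LP against BL, and their medians were 0.06, 0.65, 0.24 and 0.06.

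For the low protein diet itself, LP was compared with STD, both of weeks 1 to 4, with 6 libraries in each group. With so few libraries small differences could be missed, so an absence of calls does not show that the diet left these genes unaltered. None of the 38 genes passed, against 0% of all genes tested, and none had an unadjusted p under 0.05 in edgeR, against 9.05% of all genes. DESeq2 called none of the 38 and 1.17% of all genes. The log2 differences ran from -0.21 to 0.42 with a median of 0.02, 17 below 0 and 21 above. With single libraries left out that median ran from -0.02 to 0.07. Without STD replicate 1 none of the 38 passed in edgeR, against 3 of all 12659 genes tested. For SDHB the difference was -0.03 ± 0.08 (SE), for UQCRC1 0.03 ± 0.08, for COX7A1 0.24 ± 0.15 and for ATP5IF1 -0.11 ± 0.10. The highest was that of COX4I1, 0.42 ± 0.31, where the single LP replicate 4 stood at 209 CPM and the other 5 LP libraries at 58.1 to 74.2.

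STD-STD was compared with STD, the same diet in the later and the earlier period. Of the 38 genes 20 were lower in STD-STD and none was higher, against 7.89% of all genes tested that were lower and 8.01% that were higher. The median log2 difference was -0.23, a level of 85.3% of that in STD, with 34 of 38 below 0, beside -0.01 over all genes. Complex II contributed SDHB at -0.42 ± 0.09 (SE, adjusted p = 0.00113) and SDHA at -0.25 ± 0.09 (SE, adjusted p = 0.0352). Complex III contributed CYC1 at -0.39 ± 0.10 (SE, adjusted p = 0.00504), UQCRC2 at -0.36 ± 0.09 (SE, adjusted p = 0.00261) and UQCRC1 at -0.29 ± 0.10 (SE, adjusted p = 0.0341). In complex IV 5 of 14 were lower, namely COX7A1 at -0.42 ± 0.14 (SE, adjusted p = 0.0294), COX6B at -0.36 ± 0.09 (SE, adjusted p = 0.00316), COX5B at -0.35 ± 0.10 (SE, adjusted p = 0.00852), COX5A at -0.30 and COX7A2L at -0.28, a factor that joins complexes III and IV in mammals. In complex V 10 of 15 were lower, from ATP5ME at -0.50 ± 0.15 (SE, adjusted p = 0.012), ATP5F1C at -0.43 ± 0.09 (SE, adjusted p = 0.000747), ATP5MC1 at -0.40 ± 0.10 (SE, adjusted p = 0.00322) and ATP5IF1 at -0.39 ± 0.08 (SE, adjusted p = 0.000658) to ATP5MG at -0.16 ± 0.06 (SE, adjusted p = 0.0483), with ATP5F1D, ATP5PB, ATP5PD, ATP5PF and ATP5PO between -0.28 and -0.23. These are edgeR values throughout.

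The 4 genes above 0 in this comparison were SDHC, COX4I1, COX4I2 and COX6A1, none past the threshold. COX6A2 (-0.16 ± 0.12) and ATP5MC3 (-0.25 ± 0.12) did not pass either. Without STD replicate 1, the library with the highest mean, 10 of the 20 calls were left: ATP5F1C, ATP5IF1, ATP5MC1, ATP5ME, ATP5PB, COX5B, COX6B, CYC1, SDHB, UQCRC2. The median difference was then -0.18. Without STD replicate 4, in a fit of just the compared groups, or with runs of consecutive libraries treated as correlated, 13 calls were left in each case. Over all genes these called 934 of 13585, 1227 of 12922 and 793 of 13517 lower.

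LP-STD was compared with LP, which spans both the period and the return to the standard diet. Of the 38 genes 10 were lower in LP-STD and none was higher, against 9.04% of all genes tested that were lower and 8.78% that were higher. The median was -0.18, a level of 88.3% of that in LP, with 32 of 38 below 0, beside -0.03 over all genes. Complex IV held COX7A1 at -0.67 ± 0.14 (SE, adjusted p = 0.000356), COX7A2L at -0.40 ± 0.10 (SE, adjusted p = 0.00263), COX6A2 at -0.36 ± 0.11 (SE, adjusted p = 0.0198), COX6B at -0.36 ± 0.09 (SE, adjusted p = 0.00324) and COX8A, the last subunit of the complex, at -0.27 ± 0.10 (SE, adjusted p = 0.0413). Complex V held ATP5ME at -0.56 ± 0.14 (SE, adjusted p = 0.00384), ATP5MC1 at -0.32 ± 0.10 (SE, adjusted p = 0.0204), ATP5F1D at -0.26 ± 0.08 (SE, adjusted p = 0.0199), ATP5PO at -0.24 ± 0.07 (SE, adjusted p = 0.0108) and ATP5IF1 at -0.23 ± 0.08 (SE, adjusted p = 0.038) (edgeR). No gene of complexes II and III passed, SDHB being at -0.19 ± 0.09 (SE, adjusted p = 0.167) and CYC1 at -0.14 ± 0.10 (SE, adjusted p = 0.371). The calls of COX8A and ATP5IF1 both ended with DESeq2, RLE factors, no count filter or correlated runs, and without LP replicate 2, 5 or 6. COX8A also lost its call without LP replicate 4, and ATP5IF1 without LP replicate 1 and with a replicate block, which also ended the call of COX6A2. The count was 5 without LP replicate 2, 6 without LP replicate 5 and 16 by limma voom with quality weights, which called 12.7% of all genes lower.

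Slow fibre markers fell in the same comparison. All 6 of those tested (MYL2, MYL3, TNNT1, TNNI1, TNNC1 and ATP2A2) were lower in LP-STD, with a median of -0.88, and their summed level was 4558 to 9677 CPM in LP and 2702 to 5616 CPM in LP-STD. Between STD and STD-STD none of the 6 passed, with a median of -0.25, and their sums were 4577 to 11818 CPM and 2710 to 9038 CPM. The part of fibre type in the fall of the respiratory genes was not tested. Markers of other cell types were also read in the 2 period comparisons. All 6 adipocyte markers lay below 0 in both, with medians of -0.54 in STD-STD against STD and -0.43 in LP-STD against LP. In each comparison 1 of the 6 was called, 16.7% beside 15.9% and 17.8% of all genes called in either direction. Their sums were 307 to 497 CPM in STD, 211 to 481 in STD-STD, 271 to 487 in LP and 233 to 507 in LP-STD. All 6 macrophage markers lay above 0 in STD-STD against STD, none called, with a median of 0.51 and sums of 57.4 to 109 CPM in STD and 53.3 to 233 in STD-STD, while in LP-STD against LP 2 of 6 lay above 0, none called, with a median of -0.23. Of 5 endothelial markers 1 was called lower in STD-STD against STD, 20% beside 15.9% of all genes called in either direction. None was called in LP-STD against LP, and the medians were -0.18 and -0.19. ALAS2, the haem synthesis enzyme of red cell precursors and the only red cell marker with enough counts to be tested, was lower in LP-STD against LP, at -1.61 ± 0.37 (SE, adjusted p = 0.00107) (edgeR), from a median of 1.53 CPM to 0.448 CPM. In STD-STD against STD it was at -0.75 ± 0.37 (SE, adjusted p = 0.16). The part of these cell types in the lower values of the respiratory genes was not tested.

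**Figure D4:**
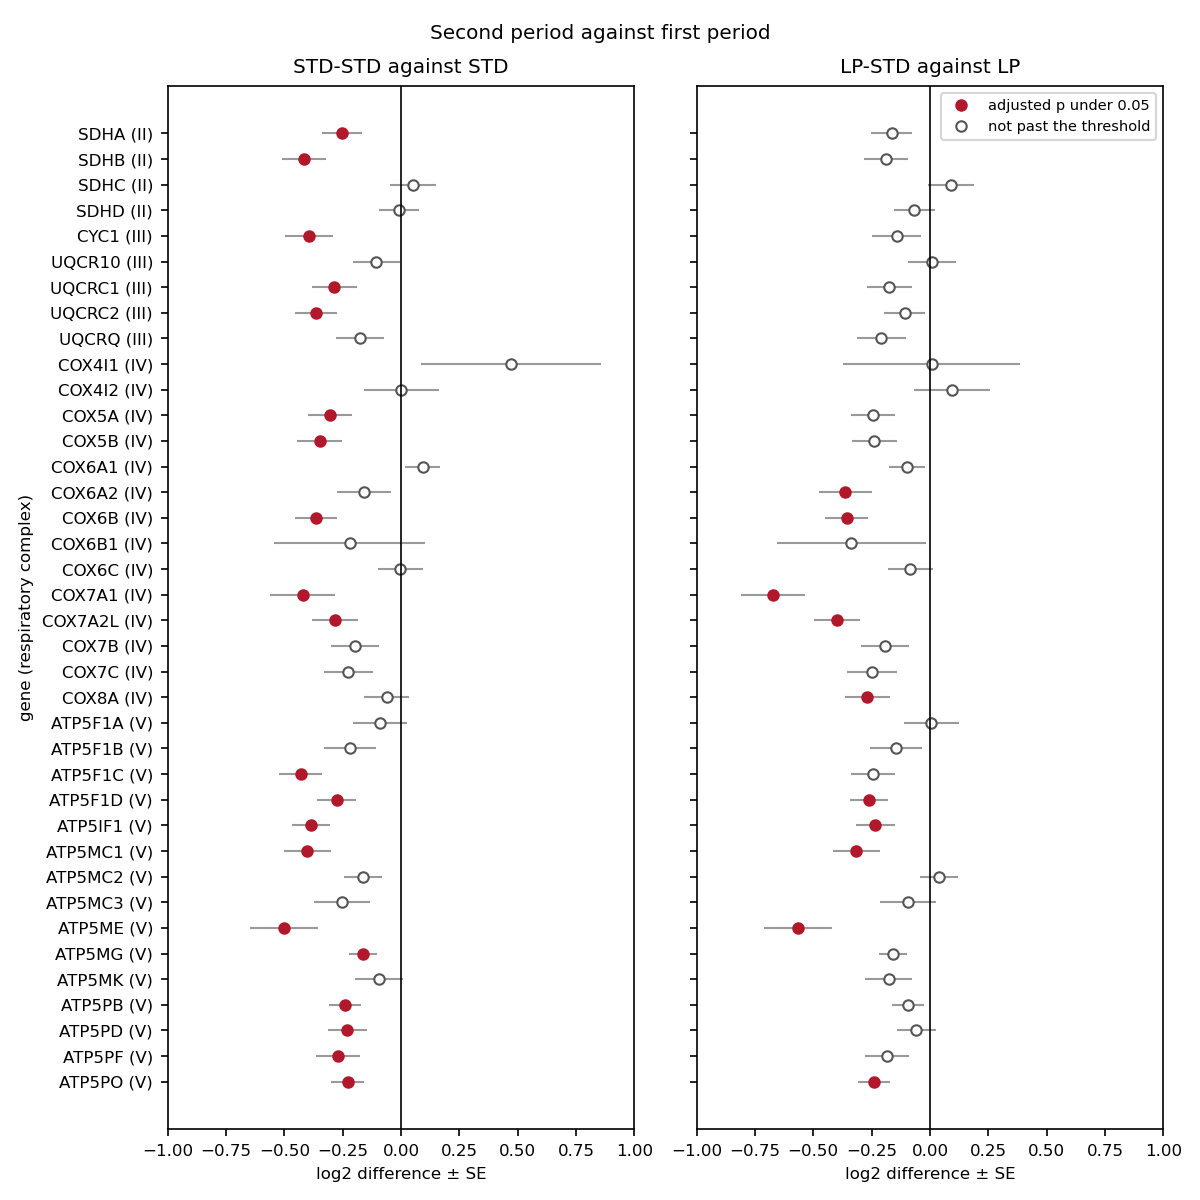
Log2 difference with its SE for each of the 38 genes in STD-STD against STD (left) and LP-STD against LP (right), from edgeR, with filled points for an adjusted p under 0.05 and open points for the rest. On the left 20 points are filled, in all 4 complexes, and on the right 10 are filled, all in complexes IV and V, and every filled point lies below 0.

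The 2 period comparisons use separate libraries. They shared 8 of the lower genes, which is 40% of the 20 and 80% of the 10: COX6B, COX7A1, COX7A2L, ATP5F1D, ATP5IF1, ATP5MC1, ATP5ME and ATP5PO. The shared count dropped to 4 when STD replicate 1 was left out and to 5 when either STD replicate 4 or LP replicate 2 was, or with correlated runs, alternatives chosen after seeing the data. Over all genes 440 were lower in both, 41.2% and 36% of the genes lower in each. Whether the change differed with diet history was tested directly as an interaction. None of the 38 genes passed, against 0.163% of all genes tested, and 1 had an unadjusted p under 0.05, against 8.66% of all genes. The median of the interaction was 0.05 on the log2 scale, and -0.01 without STD replicate 1. The interaction, as the change in the low protein history minus that in the standard history, was 0.23 ± 0.13 (SE) for SDHB, 0.26 ± 0.13 for UQCRC2, -0.25 ± 0.20 for COX7A1 and -0.20 ± 0.16 for COX6A2.

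Within weeks 5 to 8, none of the 38 genes passed between LP-STD and STD-STD, against 0% of all genes tested, 3 having an unadjusted p under 0.05 in edgeR, against 10.1% of all genes, and none being called by DESeq2, against 0.0537% of all genes. The median difference was 0.05. All 6 slow fibre markers lay below 0 there, with a median of -0.48 and 6 at an unadjusted p under 0.05 in edgeR. All 6 macrophage markers also lay below 0, with a median of -0.59. The skeletal muscle, adipocyte and endothelial markers had medians of 0.11, 0.15 and 0.07. No marker of these lists passed, and their part in the values of the 38 genes was not tested. A test for any difference among the 4 second-period groups was passed by none, against 0.506% of all genes tested, with 5 at an unadjusted p under 0.05, against 15.7% of all genes. The 2 lysine diets were each compared with the same LP-STD libraries, so their values share a control. With 10% more lysine none passed in edgeR, against 0.407% of all genes tested, and 12 had an unadjusted p under 0.05, against 14.4% of all genes. The differences were below 0 in 35 of 38, beside 6096 of all 13032 genes, and the median was -0.12, beside 0.01 over all genes. CYC1 came nearest at -0.29 ± 0.08 (SE, adjusted p = 0.078), and DESeq2 called it lower, as its only one of the 38, beside 0.898% of all genes called lower. With 20% more lysine none passed in edgeR, against 0.046% of all genes tested, and 9 had an unadjusted p under 0.05, against 15.9% of all genes. The differences were below 0 in 33 of 38, beside 6184 of all 13032 genes, and the median was -0.11, beside 0.01 over all genes, with CYC1 at -0.20 ± 0.08 (SE, adjusted p = 0.206). DESeq2 called none there, against 0.853% of all genes, and limma voom with quality weights called 1 gene lower, ATP5PB of the outer stalk, against 0.975% of all genes.

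The second-period libraries were numbered in 3 sets of 16, each with a run of 4 libraries from every group. With 10% more lysine the median log2 difference of the 38 genes from LP-STD was -0.17 in the first set, 0.09 in the second and -0.27 in the third. With 20% more lysine it was -0.14, 0.01 and -0.21. The sign in the second set thus went against the other two in both diets. Macrophage markers moved with the lysine groups, all 6 lying above 0 with medians of 0.63 and 0.68 but none past the threshold, and the sums were 50.6 to 198 CPM in LP-STD, 57.5 to 327 CPM in LP-STD10 and 52.3 to 257 CPM in LP-STD20. All 5 endothelial markers lay below 0 in both diets, with medians of -0.22 and -0.10 and sums of 212 to 349.5 CPM in LP-STD, 177 to 313 in LP-STD10 and 225 to 302 in LP-STD20. Of the adipocyte markers 5 of 6 lay below 0 in both, with medians of -0.26 and -0.46, and no marker of either list passed. Their part in the lower values was not tested. None of the 38 genes passed a test for differences between the runs within the groups, against 5.68% of all genes tested, 5 having an unadjusted p under 0.05, against 21.2% of all genes.

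**Figure D5:**
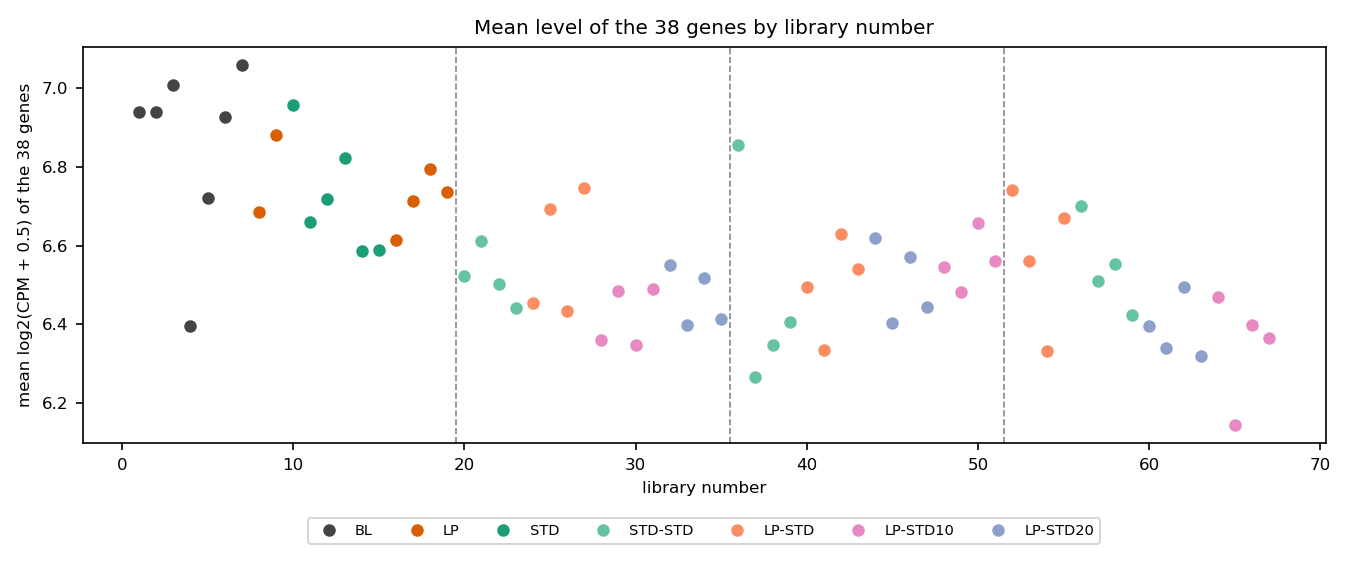
Mean log2(CPM + 0.5) of the 38 genes in each of the 67 libraries against the library number, coloured by group, with dashed lines between the first-period and BL libraries and the 3 sets of 16 second-period libraries. The first 19 libraries lie mostly above the rest, BL replicate 4 (library 4) lies near 6.40 among the second-period values, and the 4 groups of each set overlap.

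The balance of isoforms within a library does not depend on depth or scaling. The log2 ratio of COX6A2 to COX6A1 was 1.65 ± 0.21 (SD, n = 7) in BL, 1.28 ± 0.36 (n = 6) in LP, 1.21 ± 0.16 (n = 6) in STD, 0.94 ± 0.23 in STD-STD, 1.02 ± 0.28 in LP-STD, 0.98 ± 0.35 in LP-STD10 and 0.87 ± 0.31 in LP-STD20 (n = 12 each). STD was lower than BL by 0.44 (exact two-sided permutation test, p = 0.00466), which gave an adjusted p of 0.0559 over the 24 tests of 3 pairs in 8 comparisons. STD-STD against STD was -0.26 (exact p = 0.0214, adjusted p = 0.138) and LP-STD against LP was -0.26 (exact p = 0.11, adjusted p = 0.294). The ratio of ATP5MC1 to ATP5MC3 was -0.24 ± 0.04 in LP (SD, n = 6) and -0.46 ± 0.14 in LP-STD (SD, n = 12). That difference of -0.22 was the only one of the 24 to pass (exact p = 0.00205, adjusted p = 0.0491), and it no longer passed when any 1 LP library was left out, with differences from -0.23 to -0.21. STD-STD against STD was -0.15 for this pair (exact p = 0.0231, adjusted p = 0.138). The ratio of COX4I2 to COX4I1 passed in no comparison, its group SDs running from 0.45 to 1.14. The planned partners, COX7A2 for COX7A1 and COX8B or COX8H for COX8A, have no row under these symbols, so their ratios could not be tested.

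Other genes of oxidative phosphorylation were counted from lists made by function or, for complex I, by symbol alone. Their counts stand beside 7.89% lower and 8.01% higher of all genes in STD-STD against STD, 9.04% and 8.78% in LP-STD against LP, 4.08% and 2.62% in STD against BL and 4.02% and 2.44% in LP against BL. Nuclear genes listed for complex I, the NADH dehydrogenase that feeds the same chain, gave 12 lower and 1 higher of 34 in STD-STD against STD. Among the lower were NDUFA11 at -0.49 ± 0.08 (SE, adjusted p = 2.27e-05), NDUFA10 at -0.36 ± 0.08 (SE, adjusted p = 0.000923), NDUFB4 at -0.37 ± 0.09 (SE, adjusted p = 0.00159) and NDUFV1 at -0.38 ± 0.09 (SE, adjusted p = 0.00293) (edgeR). The higher one was NDUFA4L2 at 0.43 ± 0.14 (SE, adjusted p = 0.0237) (edgeR). It is in the list by its symbol and is not read as a complex I subunit. In LP-STD against LP 5 of the 34 were lower, 14.7% called beside 17.8% of all genes called in either direction. Among them were NDUFA11 at -0.42 ± 0.08 (SE, adjusted p = 0.000199) and NDUFA4, now counted with complex IV, at -0.46 ± 0.11 (SE, adjusted p = 0.0015) (edgeR). None of the 8 mitochondrially encoded genes in the table passed in either of these comparisons. Against BL 3 of 8 were lower in STD (ND3, COX2 and ATP8) and 3 of 8 in LP (ND1, ND3 and ATP8), with medians of -0.37 and -0.37. Their share of all counts was 4.54% ± 0.62 in BL (SD, n = 7), 3.23% ± 0.50 in STD and 3.52% ± 0.46 in LP (SD, n = 6 each).

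Assembly factors of complexes II to V were called no more often than all genes, 11.8% beside 15.9% in STD-STD against STD and 8.82% beside 17.8% in LP-STD against LP. In STD-STD against STD 4 of 34 were lower: OXA1L, which inserts proteins into the inner membrane, at -0.41 ± 0.09 (SE, adjusted p = 0.000423), COX15 of haem a synthesis at -0.38 ± 0.10 (SE, adjusted p = 0.00452), LRPPRC, which stabilises mitochondrial messages, at -0.30 ± 0.09 (SE, adjusted p = 0.0162) and SURF1 at -0.37 ± 0.12 (SE, adjusted p = 0.023) (edgeR). In LP-STD against LP 1 was lower, the copper chaperone SCO1 at -1.29 ± 0.35 (SE, adjusted p = 0.00673), and 2 were higher, COA6 and TMEM242. Electron carriers such as coenzyme Q enzymes and electron transfer flavoproteins gave 5 lower of 14 in STD-STD against STD, with COQ4 at -0.51 ± 0.10 (SE, adjusted p = 0.00017) and ETFA at -0.37 ± 0.09 (SE, adjusted p = 0.0018), and 1 lower in LP-STD against LP, COQ4 at -0.42 ± 0.10 (SE, adjusted p = 0.00169). Against BL, ETFDH, which passes electrons from fatty acid and amino acid oxidation to ubiquinone, was lower, at -0.93 ± 0.11 (SE, adjusted p = 2.32e-09) in STD and -0.97 ± 0.11 (SE, adjusted p = 1.1e-09) in LP. Of 13 regulators of mitochondrial biogenesis PPARGC1A and PPARGC1B, coactivators of respiratory genes, were lower in STD-STD against STD, at -0.72 ± 0.21 (SE, adjusted p = 0.0103) and -0.65 ± 0.16 (SE, adjusted p = 0.00332), and in LP-STD against LP, at -0.60 ± 0.21 (SE, adjusted p = 0.031) and -0.56 ± 0.16 (SE, adjusted p = 0.0119), where YY1 was higher. As a list these regulators were called at 15.4% beside 15.9% of all genes in STD-STD against STD. In LP-STD against LP the shares were 23.1% and 17.8%, with list medians of -0.09 in both comparisons. None of these 5 lists had a gene past the threshold in either lysine comparison. The 34 tested genes of the complex I list all lay below 0 in both, with medians of -0.13 and -0.13 and 14 at an unadjusted p under 0.05 in each, and so did the 8 mitochondrially encoded genes, with medians of -0.23 and -0.22 and 5 and 7 at an unadjusted p under 0.05.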

How the data were processed

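The authors deposited raw read counts per gene symbol for 67 libraries of pig longissimus dorsi. Per the submitters' processing notes they used DESeq2 and the genome build Sscrofa11.1. The aligner, counter and strand setting are not stated in the sources used here, so reads of overlapping or near-identical genes, such as pseudogenes of these subunits, may be split. No sequences are printed, and coordinates are from the RefSeq table of Sscrofa11.1, in which 12 of 40 genes were found by symbol. Groups came from the library titles. The highest correlation of 2 libraries across genes was 0.992, and none was counted as a duplicate.

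The tests came from edgeR 4.0.16 under R 4.3.3, with filterByExpr, TMM factors and a robust quasi-likelihood F test, adjusted over all genes tested, at a threshold of 0.05. LP against STD used 12 libraries (12584 genes), comparisons within weeks 5 to 8 used 48 (13032 genes), and the others all 67 (13517 genes). CPM are counts over TMM-scaled totals, and log2 levels add 0.5. Isoform ratios of counts plus 0.5 were compared by permutation, exact where a group had fewer than 10 libraries and otherwise with 100000 resamples, in Python 3.11.15 with scipy 1.17.1. Replicates are separate animals per the design text.

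Every member could be named; full accounts went to the SDH genes, the isoform pairs and the 3 lowest p-values of each complex over the 7 groups, and up to 4 genes of each other list in a comparison to those with the lowest p, except NDUFA4L2 and the fibre markers, named after their values were seen. Members and lists were chosen with earlier results of these data known. Alternatives were RLE factors, DESeq2 1.42.0, limma 3.58.1 voom with quality weights or correlated runs, no count filter, a replicate block, other libraries in the fit, sets of 16 as a block, a ratio pseudocount of 5 and each BL, LP or STD library left out. The tests were checked on simulated counts. Markers of liver and fat were also read: summed liver markers were at most 102 CPM in any library, and fat markers summed to 151 to 507 CPM. Of the red cell markers ALAS2 alone was tested, and the others are not reported here. Leaving out single libraries in the test over 7 groups was added after seeing the data.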

Additional observations from a re-analysis of the deposited data

Results flagged for a closer look

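Each of the 38 genes was checked in BL, LP and STD for a library far from the rest of its group, 114 checks in all. Chance would flag about 1 in 20 of independent checks. These are not independent, since most of the genes were high or low together in a library. In 12 a library stood apart. BL replicate 4 was the low library in 8 of them: SDHA at 279 CPM (370 to 417 in the other 6), SDHC at 82.7 (130 to 159), SDHD at 78.7 (159 to 180), UQCRC2 at 226 (280 to 300), COX6C at 69.8 (105 to 122), ATP5F1B at 597 (1110 to 1470), ATP5MK, a small membrane subunit of complex V, at 21.5 (36.2 to 40.5), and ATP5PF, coupling factor 6, at 64.9 (87.0 to 103). STD replicate 1 was high in ATP5PF at 107 CPM (75.7 to 87.6 in the other 5) and in ATP5MG, subunit g, at 120 CPM (94.4 to 102). LP replicate 4 was high in COX4I1 at 209 CPM (58.1 to 74.2), and LP replicate 2 was high in ATP5PD at 130 CPM (110 to 116).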

How the results depend on the processing

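Of 1300 values of the 68 calls of single genes under the alternatives 1174 stayed past the threshold, 126 fell short of it and 0 changed sign. Counts of lower genes that moved by over 1.5 times were as follows. For STD against BL, 5 became 3 with no count filter, 12 by voom with quality weights and 1 in a fit of just the compared groups. For LP against BL, 3 became 6 by voom with quality weights and 0 in a fit of just the compared groups. For STD-STD against STD, 20 became 13 both with correlated runs and in a fit of just the compared groups, and for LP-STD against LP 10 became 16 by voom with quality weights. For LP-STD10 and LP-STD20 against LP-STD 0 became 1, by DESeq2 and by voom with quality weights. With single libraries left out the counts ran from 2 to 5 for STD against BL, 2 to 4 for LP against BL, 10 to 19 for STD-STD against STD and 5 to 11 for LP-STD against LP, and from 29 to 32 for any difference among the 7 groups. The cause of these shifts was not tested, though several alternatives hold fewer libraries. The replicate numbers did not pair the samples (median correlations of same-numbered deviations from -0.126 to 0.109), and with a replicate block STD against BL gave 2 calls, LP against BL 3, STD-STD against STD 17 and LP-STD against LP 8. Leaving out a library also changed the sign of 3 isoform differences far from the threshold: COX6A2 to COX6A1 in LP against STD to -0.01906 without LP replicate 2 (0.1728 at the other end), COX4I2 to COX4I1 in LP-STD against LP to -0.2344 without LP replicate 4 (0.2468), and ATP5MC1 to ATP5MC3 in LP against STD to -0.01984 without STD replicate 3 (0.05023). For COX6A2 to COX6A1 the differences without single libraries ran from -0.5097 to -0.3876 in STD against BL and from -0.3178 to -0.2308 in STD-STD against STD, passing without BL replicate 4 and STD replicate 2. For ATP5MC1 to ATP5MC3 they ran from -0.2108 to -0.1002 in LP against BL, from -0.1987 to -0.1286 in STD-STD against STD and from -0.2298 to -0.2099 in LP-STD against LP, passing without BL replicate 2, without STD replicate 3 and in none. A ratio pseudocount of 5 changed no call in the 24 tests. Promoter motifs, planned only if promoter sequences were given, were not run. The smallest counts, those of COX6B1 and COX4I2, limit what differences could be seen there.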
